A study of Mus musculus with 18 samples.

Results

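A set of 7 genes of cholesterol and isoprenoid synthesis, Insig1, Hmgcs1, Pmvk, Ggps1, Sqle, Lss and Dhcr7, were followed across mouse cortex and cortical cultures, each sampled untreated or sham-treated, soon after a treatment, and about a day later. A gene was taken from the probe sets annotated with its symbol alone, and each of the 7 had 1 such probe set among the 14807 genes measured in this way. Per the labels' protocols, cortex came from male C57BL/6J mice that were undisturbed in the home cage (control), were kept awake for 6 h and sampled at once (sleep-deprived), or were kept awake for 6 h and then left to recover (recovered). The design text has the recovered mice sampled on the following day, at the hour their deprivation had started. The source labels give 18 h of recovery, which after 6 h awake reaches that hour. The treatment protocol gives 24 h of recovery. The labels give neither the age of the mice nor the hour at which controls were sampled. Cultures of dissociated C57BL/6J cortex, prepared from newborn pups or late embryos, were sampled 3 h after sham stimulation with water, 3 h after an excitatory neurotransmitter cocktail, or 24 h after that cocktail.  There were 3 arrays in each of the 6 groups. A cortex array held pooled RNA of 3 mice (9 mice per group), and a culture array held 1 dish. The dishes came from 3 cultures, and p-values measure only the spread between these pools and dishes.

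Cells build cholesterol and other isoprenoids from acetyl-CoA through mevalonate. Hmgcs1 makes the precursor of mevalonate, Pmvk phosphorylates phosphomevalonate, and Ggps1 makes geranylgeranyl diphosphate, a lipid that anchors small GTPases to membranes and lies off the branch to cholesterol. Sqle oxidises squalene, Lss closes the sterol ring system to lanosterol, and Dhcr7 carries out a final reduction to cholesterol. Insig1 is no enzyme: when sterols are plentiful its protein holds the sterol-sensing SREBP complex in the endoplasmic reticulum, and the Insig1 gene is itself switched on by SREBP. Brain cholesterol is made locally, since lipoprotein cholesterol does not cross the blood-brain barrier, and oligodendrocytes that form myelin and astrocytes are major producers.

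Upstream sequence was available for 6 of the 7 genes, in 9 windows of 250 bases that end just before a transcript start, taken from RefSeq for build GRCm38.p6. Sqle is named only. The windows of 4 genes are printed because the tested differences within cortex or culture turned on 3 of them (Insig1, Lss and Pmvk), and Hmgcs1 is the gene with the site form of SREBP in this window. Insig1 lies on chromosome 5 (chr5:28071162-28071411, plus strand), Hmgcs1 on chromosome 13 (chr13:119690101-119690350, plus strand), Lss on chromosome 10 (chr10:76531355-76531604, plus strand) and Pmvk on chromosome 3 (chr3:89454291-89454540, plus strand, 1 of its windows). Capitals mark matches, on either strand, to 4 motifs: the SREBP site form TCACNCCAC, the E-box CACGTG, the CCAAT box with the letters CCAAT, and the GC box GGGCGG.
Insig1: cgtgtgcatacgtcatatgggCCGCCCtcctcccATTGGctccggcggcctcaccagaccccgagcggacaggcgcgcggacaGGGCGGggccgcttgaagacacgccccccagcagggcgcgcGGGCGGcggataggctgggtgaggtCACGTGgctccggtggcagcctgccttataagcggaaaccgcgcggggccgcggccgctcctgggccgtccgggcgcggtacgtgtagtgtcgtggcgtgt
Hmgcs1: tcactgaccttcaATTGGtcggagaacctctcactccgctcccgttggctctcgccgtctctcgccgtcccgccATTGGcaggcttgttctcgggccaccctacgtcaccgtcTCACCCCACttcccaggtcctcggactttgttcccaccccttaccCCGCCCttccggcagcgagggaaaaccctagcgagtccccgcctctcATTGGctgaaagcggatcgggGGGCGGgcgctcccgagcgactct
Lss: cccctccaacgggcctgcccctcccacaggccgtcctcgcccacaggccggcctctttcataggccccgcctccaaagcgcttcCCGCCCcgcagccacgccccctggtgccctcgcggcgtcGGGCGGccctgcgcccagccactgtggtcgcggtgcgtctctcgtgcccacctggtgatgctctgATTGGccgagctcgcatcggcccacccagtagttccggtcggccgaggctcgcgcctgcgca
Pmvk: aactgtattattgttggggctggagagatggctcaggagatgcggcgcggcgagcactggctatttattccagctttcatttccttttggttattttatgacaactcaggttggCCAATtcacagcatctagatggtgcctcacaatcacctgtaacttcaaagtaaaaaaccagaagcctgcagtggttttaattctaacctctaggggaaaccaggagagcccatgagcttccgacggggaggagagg
No matches overlapped in these windows. The Hmgcs1 window held TCACNCCAC with its first letter 137 bases before the start, 3 CCAAT boxes and 2 GC boxes. The Insig1 window held the E-box 101 bases before the start, 1 CCAAT box and 3 GC boxes. The Lss window held 1 CCAAT box and 2 GC boxes, and the Pmvk window shown held 1 CCAAT box. Of 32851 mouse windows of this length, 1.05% held TCACNCCAC, 6.02% held the E-box, 33.8% held the CCAAT box and 32.7% held the GC box. The remaining windows, of Ggps1, Dhcr7 and the other start of Pmvk, held no TCACNCCAC. The Ggps1 window held 3 CCAAT boxes, and the other Pmvk window held none of the 4 motifs. For Dhcr7, an E-box stood 164 bases before a start, and its other windows held 1 GC box, or 2 CCAAT boxes and 3 GC boxes. A match is a description of the letters, and its absence from a window says nothing of the rest of a gene.

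Array medians lay between 6.87 and 7.09 on the log2 scale, and Pearson correlations between arrays of a group lay between 0.984 and 0.998. All values below are deposited log2 signals. A level can be compared between arrays for 1 probe set but not between probe sets. Differences were tested with limma, with Benjamini-Hochberg adjustment over the 14807 genes, and a gene is called changed where the adjusted p was under 0.05. A group mean is followed by its SD over 3 arrays, and a difference by its standard error. In bulk RNA from tissue or dishes, fewer cells of a type and less RNA per cell cannot be told apart. The mean signal of 9 neuronal markers was 11.8 to 11.9 on cortex arrays and 12.3 to 12.5 on culture arrays.

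In cortex, Insig1 and the enzyme genes Hmgcs1, Sqle and Lss read lowest on the sleep-deprived arrays, but none of the 7 members passed the test of sleep deprivation against control. Insig1, the sterol sensor's anchor, read 9.52, 9.58 and 9.52 in control cortex, 9.28, 9.40 and 9.21 after sleep deprivation, and 9.66, 9.58 and 9.73 after recovery. The sleep-deprived arrays lay below all control and all recovered arrays. Lss, lanosterol synthase, read 8.23, 8.29 and 8.18 in control, 7.91, 8.06 and 7.97 in sleep-deprived and 8.28, 8.25 and 8.47 in recovered cortex, again with the sleep-deprived arrays lowest. Hmgcs1 read 10.13, 10.25 and 10.07 in control, 9.93, 9.95 and 9.90 in sleep-deprived and 10.06, 10.06 and 10.20 in recovered cortex, with the same order. Sqle, squalene epoxidase, read 8.55, 8.56 and 8.83 in control, 8.28, 8.40 and 8.54 in sleep-deprived and 8.56, 8.56 and 8.86 in recovered cortex, where the highest sleep-deprived array lay just under the lowest of the other groups. Dhcr7 read 8.48, 8.49 and 8.33 in control, 8.25, 8.30 and 8.34 in sleep-deprived and 8.29, 8.49 and 8.65 in recovered cortex, so its groups overlapped. Pmvk lay on the other side, with 6.30, 6.41 and 6.37 in control, 6.44, 6.55 and 6.57 in sleep-deprived and 6.27, 6.43 and 6.51 in recovered cortex. Its sleep-deprived arrays lay above all control arrays and overlapped the recovered ones. Ggps1 stayed between 9.46 and 9.65 on all 9 cortex arrays, and its 3 groups overlapped.

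**Figure D1:**
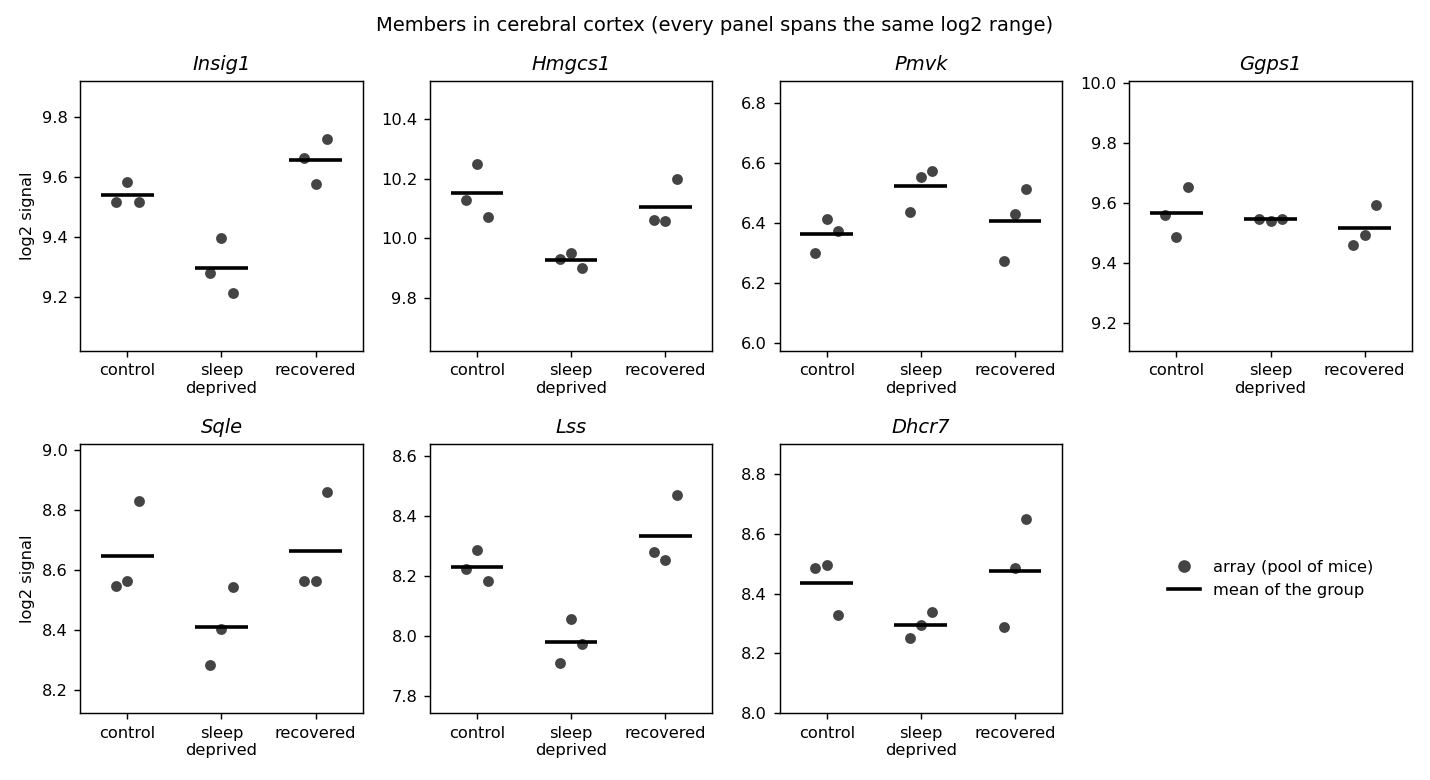
Log2 signal of each of the 7 genes on the 9 cortex arrays, by group, with points for arrays (pools of 3 mice) and horizontal bars for group means. The sleep-deprived points of Insig1, Hmgcs1, Sqle and Lss lie below all other points of the same gene, while those of Pmvk lie above the control points.

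Tested against control, sleep deprivation gave differences of -0.24 ± 0.06 for Insig1 (adjusted p = 0.0974), -0.22 ± 0.06 for Hmgcs1 (adjusted p = 0.12) and -0.25 ± 0.07 for Lss (adjusted p = 0.134). Sqle differed by -0.24 ± 0.11 (adjusted p = 0.428) and Dhcr7 by -0.14 ± 0.09 (adjusted p = 0.565). Pmvk differed by 0.16 ± 0.07 (adjusted p = 0.362) and Ggps1 by -0.02 ± 0.05 (adjusted p = 0.919). Thus 0 of 7 members were called, where limma called 1.63% of all genes, and 4 of the 7 had an unadjusted p under 0.05, as did 1984 of all 14807 genes. The groups did not overlap for 5 members, 4 lower and 1 higher, where 18.8% of all genes had non-overlapping groups in either direction. Of the 7, 6 differences lay below 0, with a median of -0.22 against -0.003 over all genes, and 51.7% of all genes lay below 0. With array weights, which let noisy arrays count less, 3 members were called (Insig1, Hmgcs1 and Lss), but calls over all genes rose as well, from 241 to 811, and some fits with these weights did not converge.

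Insig1 and Lss were higher in recovered than in sleep-deprived cortex. Insig1 rose by 0.36 ± 0.06 (1.28-fold, adjusted p = 0.0223, limma), from 9.30 ± 0.09 to 9.66 ± 0.07. Lss rose by 0.35 ± 0.07 (1.28-fold, adjusted p = 0.0403), from 7.98 ± 0.07 to 8.33 ± 0.12. The other sterol enzymes had differences above 0 that did not pass, 0.18 ± 0.06 for Hmgcs1 (adjusted p = 0.167), 0.25 ± 0.11 for Sqle (adjusted p = 0.321) and 0.18 ± 0.09 for Dhcr7 (adjusted p = 0.374). Pmvk differed by -0.12 ± 0.07 (adjusted p = 0.445) and Ggps1 by -0.03 ± 0.05 (adjusted p = 0.817). So 2 of 7 members were called, both higher, where 2.26% of all genes were called. The groups did not overlap for 4 members, Insig1, Hmgcs1, Sqle and Lss, all higher, where 22.3% of all genes had non-overlapping groups. This comparison shares its sleep-deprived arrays with the one before, so the 2 sets of differences are not independent. By the design text, recovered mice were sampled at the hour deprivation had started, and sleep-deprived mice at its end. On that reading, recovery and hour of the day cannot be told apart in this comparison. Both calls were close to the threshold. Recovered array 3 was the highest of its group for 7 of 7 members. Its array median was 6.97, against 6.91 and 6.90 on recovered arrays 1 and 2. Mean marker levels were also highest on it among the recovered arrays for each cell type given below except neurons. Without this array, Insig1 differed by 0.32 and Lss by 0.29. Insig1 was no longer called without recovered array 1 (adjusted p = 0.0845), recovered array 3 (0.0676), sleep-deprived array 1 (0.0939) or sleep-deprived array 3 (0.0764), and Lss lost its call without any of the 6 arrays (adjusted p 0.056 to 0.133).

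Recovered cortex was then set against control cortex. None of the 7 was called between recovered and control cortex, where 0% of all genes were called by limma and 427 had an unadjusted p under 0.05, among them 0 members. For all 7 members the groups overlapped, where 5.32% of all genes had non-overlapping groups. The 95% interval of the difference ran from -0.01 to 0.25 for Insig1, from -0.05 to 0.26 for Lss, from -0.17 to 0.09 for Hmgcs1 and from -0.25 to 0.28 for Sqle. For Dhcr7 it ran from -0.17 to 0.25, for Pmvk from -0.11 to 0.20 and for Ggps1 from -0.17 to 0.07.

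The wider pathway was read from a list of 25 genes of sterol and isoprenoid synthesis, of which 18 had a probe set named for them alone, members included. Between sleep-deprived and control cortex, 0 of the 18 were called, 14 lay below 0 and the median difference was -0.08, or -0.07 without the members. Of all genes, 51.7% lay below 0, with a median of -0.003. Between recovered and sleep-deprived cortex, Lss was the gene called of the 18, 14 lay above 0 and the median was 0.11, or 0.10 without the members. There 55.7% of all genes lay above 0, with a median of 0.01. The mean level of the 18 genes was 8.63 to 8.66 on control arrays, 8.54 to 8.58 on sleep-deprived arrays and 8.62 to 8.79 on recovered arrays. Among genes outside the 7, Fdft1, squalene synthase, differed by -0.08 ± 0.05 after deprivation (adjusted p = 0.522) and by 0.10 ± 0.05 on recovery (adjusted p = 0.342). Cyp51, which removes a methyl group from lanosterol, differed by -0.06 ± 0.10 (adjusted p = 0.859) and 0.12 ± 0.10 (adjusted p = 0.585). The genes of the SREBP factors themselves stayed close to control after deprivation, with -0.02 ± 0.04 for Srebf1 (adjusted p = 0.922) and 0.05 ± 0.09 for Srebf2 (adjusted p = 0.864). Insig2, the paralog of Insig1, differed by 0.07 ± 0.06 (adjusted p = 0.681) and then by -0.11 ± 0.06 on recovery (adjusted p = 0.399). Of 9 measured genes of sterol sensing and uptake, Insig1 was the gene called on recovery, and 0 of 8 genes of fatty acid synthesis, 0 of 9 of sterol efflux and 0 of 6 of prenyl transfer were called in either comparison.

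Some markers of myelin-forming cells and microglia also changed between these groups, in lists that split both ways. Among 11 measured oligodendrocyte markers, Opalin, a myelin membrane protein gene, fell by 0.84 and Aspa, which encodes aspartoacylase, fell by 0.33 with sleep deprivation (SE 0.06 and 0.04, adjusted p = 0.00165 and 0.0136), and both rose on recovery, by 0.81 and 0.36. The mean of the 11 markers was 9.60 to 9.63 in control, 9.49 to 9.54 in sleep-deprived and 9.56 to 9.71 in recovered cortex, and the other 9 were not called. With sleep deprivation 5 of the 11 lay above 0 and 6 below. The myelin protein genes Mobp (0.23 ± 0.05, adjusted p = 0.0687) and Mbp (0.12 ± 0.04, adjusted p = 0.175) lay above control with groups that did not overlap, and on recovery they differed by -0.14 ± 0.05 and -0.14 ± 0.04. Of 9 microglial markers, the receptor gene Trem2 was called, at -0.32 ± 0.04 with sleep deprivation and 0.30 ± 0.04 on recovery, while 4 of the 9 lay above 0 and 5 below with sleep deprivation (median -0.02). None of 9 astrocyte, 9 neuronal, 8 endothelial and pericyte or 4 dividing-cell markers was called. The part of these cell types in the sterol gene values was not tested.

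In the cultures, Pmvk was the gene of the 7 that passed the test at 3 h. It read 8.44, 9.04 and 8.11 in sham dishes, 9.89, 9.66 and 10.50 at 3 h after the cocktail, and 8.67, 8.70 and 9.09 at 24 h. All 3 h dishes lay above all sham and all 24 h dishes, while sham and 24 h dishes overlapped. Pmvk rose by 1.49 ± 0.28 at 3 h (2.81-fold, adjusted p = 0.0486, limma), from 8.53 ± 0.47 to 10.02 ± 0.43. Dishes with the same replicate number, which deviated together in the cultures, differed by 1.45, 0.62 and 2.40, so the rise was seen in 3 of 3 pairs but varied widely in size. With the replicate number as a block, the adjusted p was 0.0618, while limma then called 358 genes in place of 215. The call was also lost without any of the 6 dishes (adjusted p 0.0572 to 0.161, difference 1.25 to 1.74). From 3 h to 24 h Pmvk differed by -1.20 ± 0.28 (adjusted p = 0.145), a difference that did not pass, with -1.23, -0.96 and -1.42 in the pairs. At 24 h it differed from sham by 0.29 ± 0.28 (adjusted p = 0.951).

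**Figure D2:**
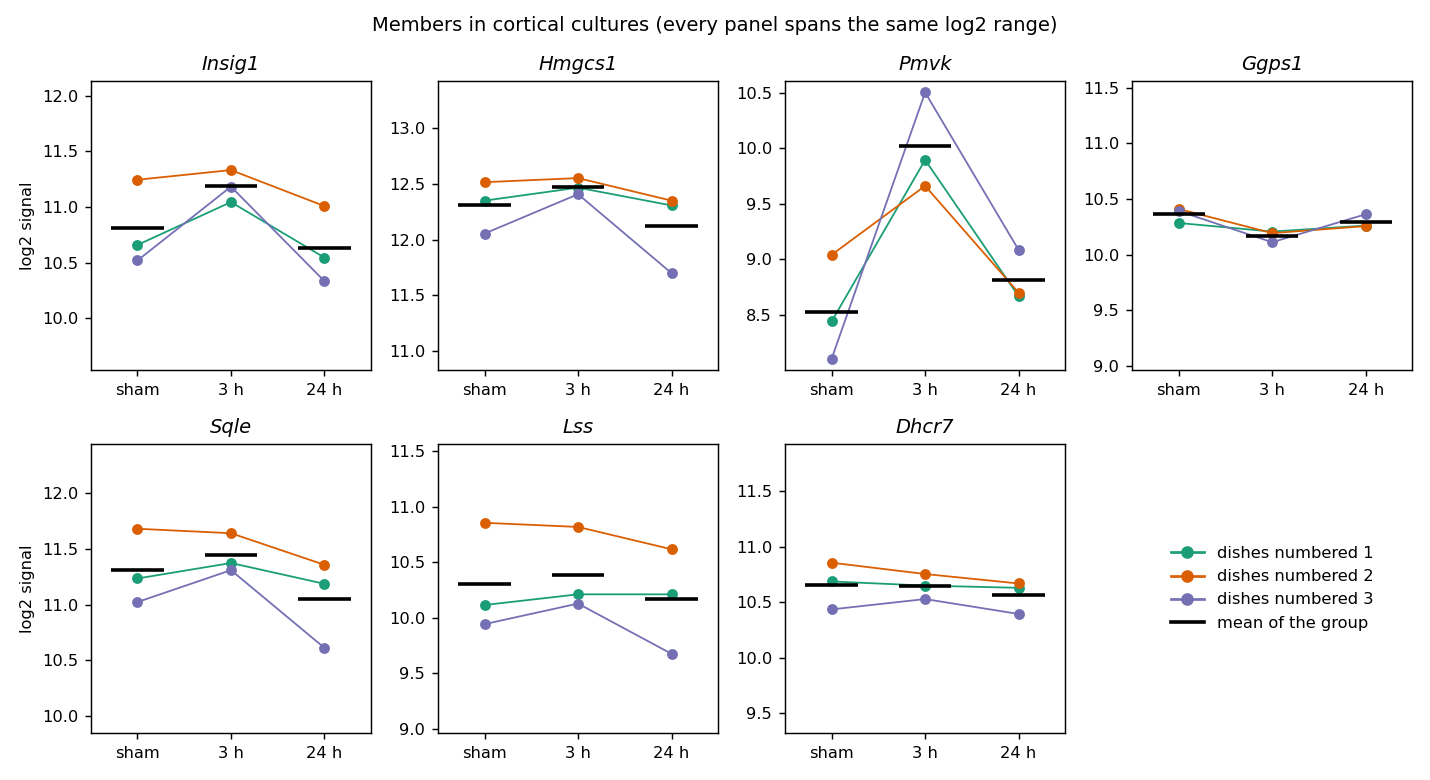
Log2 signal of each of the 7 genes on the 9 culture arrays, by group, with points for dishes, lines joining dishes of the same number, and horizontal bars for group means. Pmvk at 3 h lies above its sham and 24 h dishes, Ggps1 at 3 h lies below them, and the sham and 24 h dishes of Insig1, Sqle and Lss are spread widely.

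Insig1 and the sterol enzymes were not called at 3 h. Insig1 read 10.66, 11.25 and 10.52 in sham dishes, 11.05, 11.33 and 11.18 at 3 h and 10.55, 11.01 and 10.33 at 24 h. The 3 h dishes were close to each other and lay above all 24 h dishes, whereas 1 sham dish lay among them. The difference from sham was 0.38 ± 0.22 (adjusted p = 0.609, and 0.168 with the block), and it was above 0 in all 3 pairs (0.38, 0.09 and 0.66). Hmgcs1 read 12.35, 12.52 and 12.06 in sham, 12.47, 12.55 and 12.41 at 3 h and 12.31, 12.35 and 11.70 at 24 h, with overlap of sham and 3 h dishes. Its difference at 3 h was 0.17 ± 0.18 (adjusted p = 0.914). Sqle differed by 0.13 ± 0.23 (adjusted p = 0.981), Lss by 0.08 ± 0.32 (adjusted p = 1) and Dhcr7 by -0.02 ± 0.12 (adjusted p = 1), and for each the sham and 3 h dishes overlapped. Ggps1 read 10.29, 10.41 and 10.39 in sham, 10.21, 10.19 and 10.11 at 3 h, and 10.26, 10.26 and 10.36 at 24 h. Its 3 h dishes lay below all others, with a difference from sham of -0.19 ± 0.07 that did not pass (adjusted p = 0.25). In all, 1 of 7 members was called at 3 h, where 1.45% of all genes were called. Groups did not overlap for 2 members, Pmvk higher and Ggps1 lower, where 21.4% of all genes had non-overlapping groups.

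From 3 h to 24 h, 6 of the 7 differences lay below 0. Sham dishes were sampled at 3 h alone. Time in the dish and the passing of the treatment therefore cannot be told apart in comparisons with 24 h dishes. Between 3 h and 24 h none of the 7 was called, where 0.331% of all genes were. Without a block, 2 members had an unadjusted p under 0.05, as did 1824 of all 14807 genes. With the replicate block limma called 150 genes in place of 49, and still no member. Unadjusted p with the block was 0.00261 for Insig1, 0.00624 for Pmvk, 0.0111 for Sqle and 0.0181 for Hmgcs1. It was 0.0701 for Lss, 0.126 for Ggps1 and 0.263 for Dhcr7. Standard errors with the block were 0.11 for Sqle and 0.10 for Lss, but 0.30 for Pmvk. The standard errors that follow are those without it. Insig1 differed by -0.56 ± 0.22 (adjusted p = 0.367, and 0.0907 with the block). Hmgcs1 differed by -0.36 ± 0.18 (adjusted p = 0.5, and 0.199 with the block) and Sqle by -0.39 ± 0.23 (adjusted p = 0.559, and 0.162). Lss differed by -0.22 ± 0.32 (adjusted p = 0.85), Dhcr7 by -0.08 ± 0.12 (adjusted p = 0.864) and Ggps1 by 0.12 ± 0.07 (adjusted p = 0.529). Groups did not overlap for 4 members, with Insig1, Hmgcs1 and Pmvk lower and Ggps1 higher, where 15.3% of all genes had non-overlapping groups. In same-number pairs all 3 differences lay below 0 for Insig1, Hmgcs1, Pmvk, Sqle and Dhcr7. The median difference of the 7 was -0.36, against 0.03 over all genes. At 24 h against sham, 0 of 7 members were called and 877 genes had an unadjusted p under 0.05 with 0 members among them, where 0% of all genes were called by limma. For all 7 members the groups overlapped in that comparison, where 8.39% of all genes had non-overlapping groups.

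Dishes with the same number held like places within their groups. Sham dish 2 had the highest value of its group for all 7 members and sham dish 3 the lowest for 6 of 7. At 3 h and at 24 h alike, dish 2 was highest for 5 of 7 members and dish 3 lowest for 5 of 7. Lss, for instance, read 10.12, 10.85 and 9.94 in sham, 10.21, 10.82 and 10.13 at 3 h and 10.21, 10.62 and 9.68 at 24 h, with dish 2 highest and dish 3 lowest in each group. Sqle read 11.23, 11.68 and 11.02 in sham, 11.37, 11.64 and 11.31 at 3 h and 11.19, 11.36 and 10.61 at 24 h. Dhcr7 read 10.69, 10.86 and 10.44 in sham, 10.65, 10.75 and 10.53 at 3 h and 10.63, 10.67 and 10.39 at 24 h, so its dishes had the same order in every group. The mean of the 9 astrocyte markers had dish 3 highest each time. It was 9.88, 9.81 and 10.21 in sham, 9.75, 9.77 and 9.99 at 3 h and 10.11, 9.95 and 10.63 at 24 h. This mean can turn on Gfap, whose difference between 3 h and sham had a standard error of 1.14. The other astrocyte markers had 0.08 to 0.30 there. The mean of the 11 oligodendrocyte markers was 5.99, 6.21 and 5.75 in sham, 5.94, 6.24 and 5.80 at 3 h and 5.96, 6.21 and 5.96 at 24 h, with dish 2 highest each time, as for most members. Without dish 3 at 24 h, the difference from 3 h was -0.41 for Insig1, -0.15 for Hmgcs1 and -0.17 for Sqle, and for Lss it was 0.03. The part of cell composition in these values was not tested.

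Across the wider synthesis list, culture values lay above sham more often than below at 3 h, and below sham more often at 24 h. At 3 h, 1 of 18 genes was called (Pmvk), 13 lay above 0 and the median was 0.15, or 0.27 without the members, against -0.03 over all genes. Of all genes, 39.3% lay above 0 at 3 h. From 3 h to 24 h, 0 were called, 15 lay below 0 and the median was -0.35, or -0.44 without the members. There 41.2% of all genes lay below 0, with a median of 0.03. At 24 h against sham, 0 were called, 4 lay above 0 and 14 below, with a median of -0.13, where 50.2% of all genes lay below 0. Cyp51 differed by 0.65 ± 0.21 at 3 h (adjusted p = 0.221) and by -0.81 ± 0.21 from 3 h to 24 h (adjusted p = 0.183), and its 3 h dishes lay above all others. Fdft1 differed by 0.07 ± 0.18 (adjusted p = 0.998) and -0.32 ± 0.18 (adjusted p = 0.555). Among regulators, Srebf2 differed by 0.01 ± 0.12 at 3 h (adjusted p = 1), Srebf1 by -0.24 ± 0.16 (adjusted p = 0.685) and Insig2 by -0.20 ± 0.18 (adjusted p = 0.851). In the efflux list, Mylip, an E3 ubiquitin ligase gene, fell by 0.69 (SE 0.12, adjusted p = 0.0396) and was the gene called of 9. None of the 9 genes of sensing and uptake, 8 of fatty acid synthesis and 6 of prenyl transfer was called at 3 h or from 3 h to 24 h. Of the cell type markers, 2 were called at 3 h: Nefl, a neurofilament gene, rose by 1.08 and Pdgfrb, a pericyte receptor gene, fell by 0.89. Pdgfrb then rose by 0.77 from 3 h to 24 h, and no other marker was called in these comparisons.

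**Figure D3:**
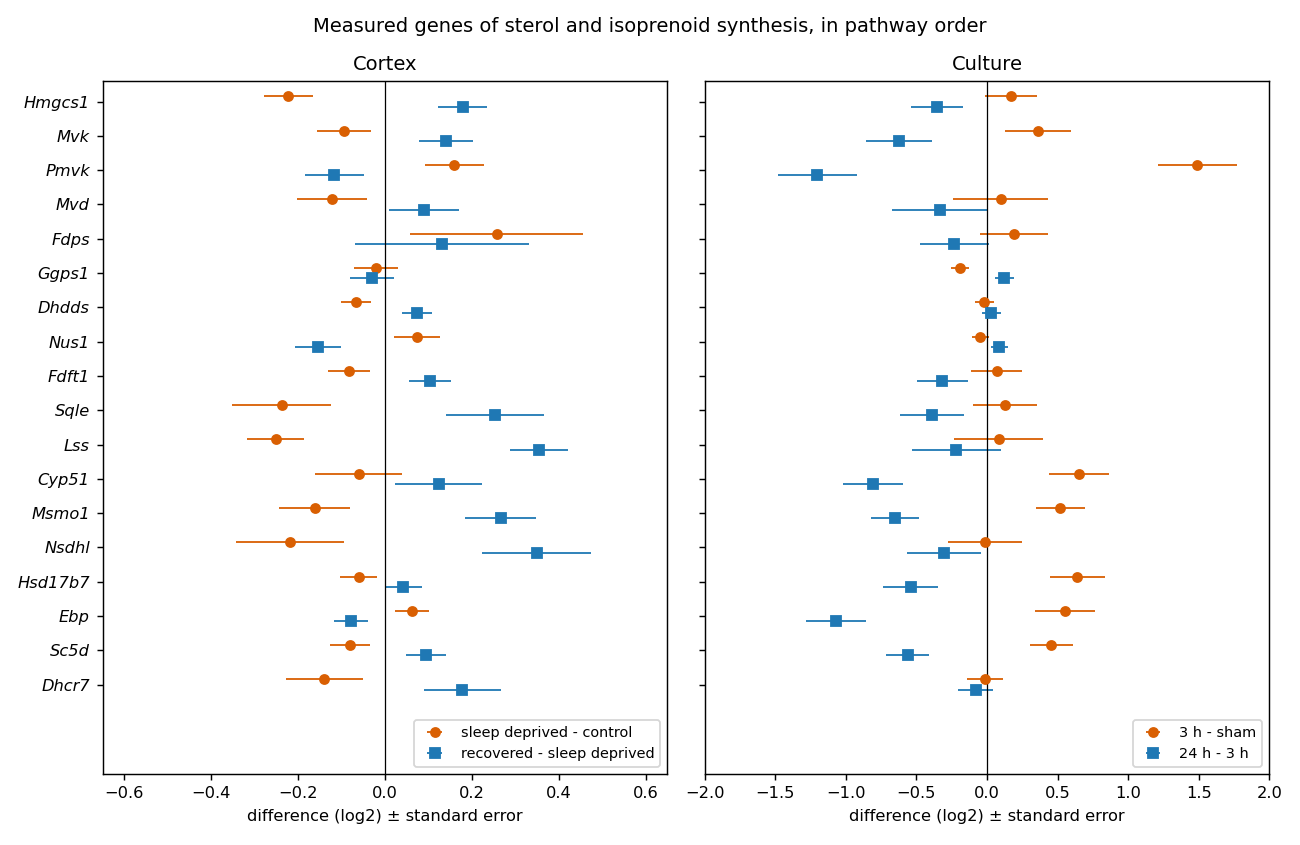
Differences on the log2 scale, with standard errors, of the 18 measured genes of sterol and isoprenoid synthesis in pathway order. The panels show the treatment and the change after it in cortex (left) and culture (right). Their axes differ in range. In cortex 14 of 18 genes lie below 0 after sleep deprivation, and in culture 13 of 18 lie above 0 at 3 h, with Pmvk farthest out.

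The responses of the 2 systems were set against each other in a model over all 18 arrays, as the difference between stimulation in culture (3 h minus sham) and sleep deprivation in cortex. Pmvk had the larger response in culture, 1.33 ± 0.30 above that in cortex (adjusted p = 0.0358), and was the member called of 7, where 2.07% of all genes were called. With the replicate block its adjusted p was 0.0568, and 514 genes were called in place of 307. Insig1 was then called instead (0.62 ± 0.24 without the block, adjusted p = 0.275, and 0.0401 with it). In models over all 18 arrays the block takes in the replicate numbers of the cortex pools as well as those of the dishes. Leaving out sham dish 2 or 3 h dish 2 kept the call of Pmvk (adjusted p = 0.00751 and 0.0176), and leaving out any other array of the 12 lost it (adjusted p 0.0592 to 0.091); without sham dish 2 Insig1 was called as well (adjusted p = 0.0445). The response differences of Hmgcs1 (0.39 ± 0.20), Sqle (0.37 ± 0.27), Lss (0.33 ± 0.34) and Dhcr7 (0.12 ± 0.16) lay above 0 and that of Ggps1 (-0.17 ± 0.08) below, and none of these was called. In the efflux list, the response differed for Mylip (-0.67 ± 0.13, adjusted p = 0.0142) and for the cholesterol exporter gene Abcg1 (-0.64 ± 0.15, adjusted p = 0.0435), both below 0.

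**Figure D4:**
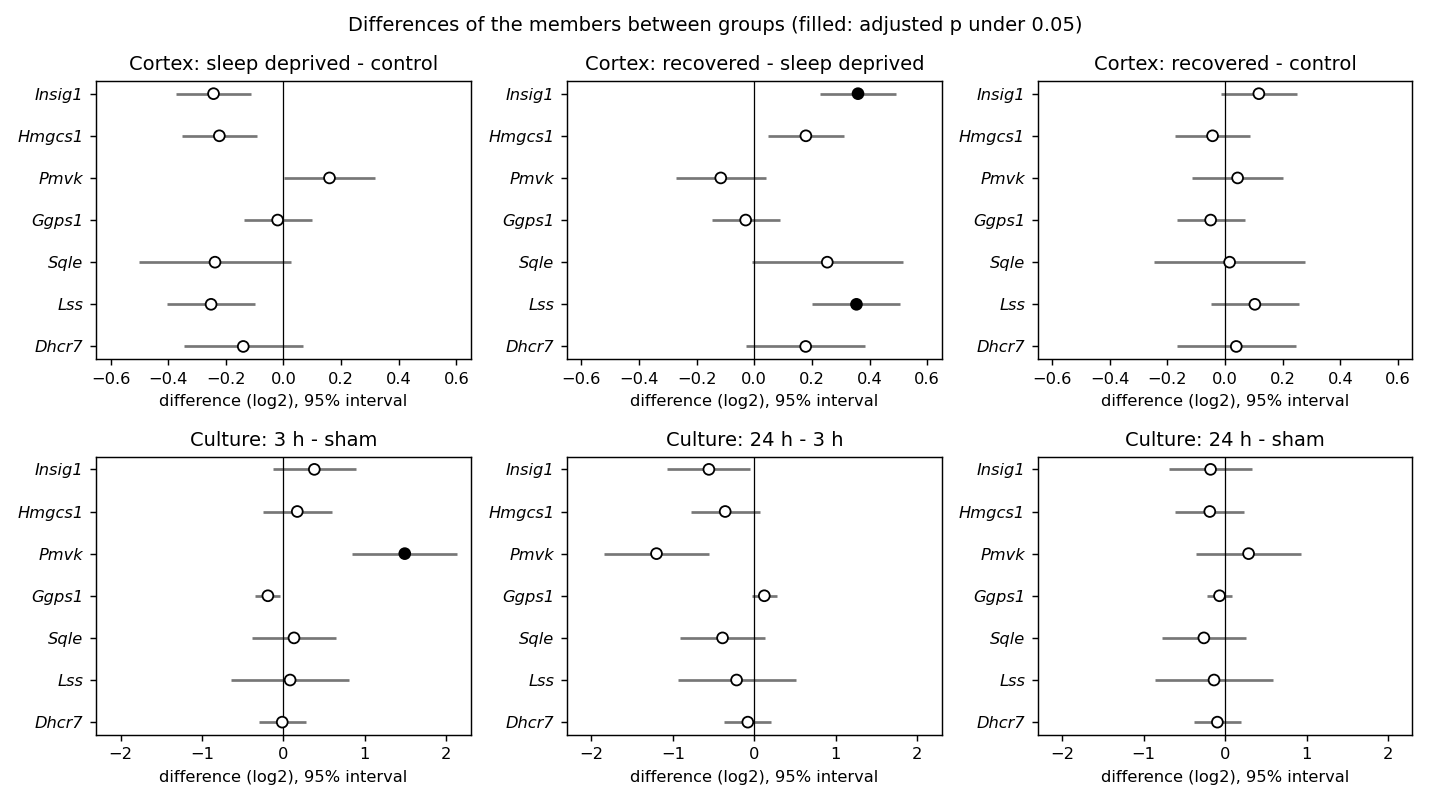
Differences of the 7 genes on the log2 scale, with 95% intervals, for each comparison within cortex (upper row) and within culture (lower row, wider axis); filled points had an adjusted p under 0.05. The filled points are Insig1 and Lss from sleep deprivation to recovery in cortex and Pmvk at 3 h in culture.

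The change after treatment had opposite signs in the 2 systems for most members, without a call in the model lacking a block. The limits of sampling time given above for both changes hold here too. The change from 3 h to 24 h in culture minus the change from deprivation to recovery in cortex was -0.92 ± 0.24 for Insig1 (adjusted p = 0.0921), -1.08 ± 0.30 for Pmvk (adjusted p = 0.119) and -0.64 ± 0.27 for Sqle (adjusted p = 0.321). It was -0.54 ± 0.20 for Hmgcs1 (adjusted p = 0.266), -0.57 ± 0.34 for Lss (adjusted p = 0.536), -0.26 ± 0.16 for Dhcr7 (adjusted p = 0.551) and 0.15 ± 0.08 for Ggps1 (adjusted p = 0.484). So 0 of 7 members were called, where 1.01% of all genes were called, and 4 members had an unadjusted p under 0.05, as did 1833 of all 14807 genes. With the replicate block, which here again takes in the cortex pools, 3 members were called, all below 0. They were Insig1 (adjusted p = 0.00782), Sqle (0.0241) and Lss (0.041), and 423 genes were called in place of 150. Without 24 h dish 2, 1 member was called. In the wider list, Msmo1, a sterol methyl oxidase gene, was the gene called of 18 (-0.92 ± 0.20, adjusted p = 0.0399). Of the 18, 16 lay below 0, as did 44.9% of all genes.

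As deposited, all 7 genes had higher signals in sham cultures than in control cortex, though the direction of Ggps1 turned after quantile normalization. The differences were 2.67 ± 0.19 for Sqle (6.35-fold), 2.22 ± 0.11 for Dhcr7 (4.67-fold), 2.17 ± 0.22 for Pmvk (4.50-fold), 2.16 ± 0.14 for Hmgcs1 (4.46-fold) and 2.07 ± 0.24 for Lss (4.21-fold). Insig1 differed by 1.27 ± 0.17 (2.41-fold) and Ggps1 by 0.80 ± 0.06 (1.74-fold), and adjusted p lay between 1.05e-10 and 6.09e-06. These 7 calls stand against 76.2% of all genes called, and the median of all genes was itself 0.50 higher in culture. The SD across probe sets was 2.29 to 2.31 on cortex arrays and 2.77 to 2.80 on culture arrays, so levels depend on scaling. After quantile normalization the all-gene median was 0.23, Insig1 differed by 0.36 (adjusted p = 0.0894), Ggps1 differed by -0.11 (adjusted p = 0.0707), and the other 5 stayed higher, by 1.28 to 1.95. With all arrays scaled to a common SD, a setting added after seeing the data, Ggps1 lay 0.21 below the all-gene median of 0.42 and Insig1 lay 0.22 above it. In the wider list 18 of 18 genes were called higher as deposited, with a median of 1.90, against 14 higher and 1 lower after quantile normalization (median 1.24) and 17 higher at a common SD (median 1.22).

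Cell type markers differed strongly between the systems. All 11 oligodendrocyte markers were lower in culture, with a median of -3.95, and their mean level was 5.75 to 6.21 in sham dishes against 9.60 to 9.63 in control cortex. All 9 microglial markers (median -2.22) and all 8 endothelial and pericyte markers (median -2.48) were lower too, while the 4 dividing-cell markers were higher (median 3.63). These directions held under both other scalings, with 8 of 9 microglial markers still called. Astrocyte and neuronal markers depended on scaling. Of 9 astrocyte markers 5 were higher and 2 lower as deposited, against 2 and 3 after quantile normalization, and of 9 neuronal markers 5 were higher as deposited, against 1 higher and 5 lower. RNA kit, age of the tissue, culture and cell makeup cannot be told apart in this comparison.

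The 7 genes did not all vary together. After each gene was standardised over the 9 arrays of each system, Insig1 correlated with Lss at 0.89 over the 18 arrays, with Hmgcs1 at 0.84, with Sqle at 0.76 and with Dhcr7 at 0.67. With Pmvk it correlated at 0.08, made up of -0.46 in cortex and 0.63 in culture, and with Ggps1 at -0.31. Among all 14807 genes Lss ranked 1 in likeness to Insig1, Hmgcs1 ranked 10, and Pmvk ranked 5692. The 5 genes outside the 7 most like Insig1 were Mvk (0.89), which encodes mevalonate kinase, Gucy2g (0.88), a guanylate cyclase gene, Stard4 (0.86), a sterol carrier gene, Sc5d (0.85), a late sterol desaturase gene, and Qrfpr (0.85), a neuropeptide receptor gene. The 5 genes outside the 7 most like their mean were Tmem97 (0.95), a gene of cholesterol handling, Sc5d (0.92), Nsdhl (0.92), a sterol dehydrogenase gene, Stard4 (0.89) and Fdft1 (0.87). These arrays share treatment groups and, in culture, dish origin, so the correlations are descriptions. Of these genes Gucy2g was called in cortex, at -0.16 ± 0.03 with sleep deprivation (adjusted p = 0.0499) and 0.19 ± 0.03 on recovery (adjusted p = 0.0224).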

How the data were processed

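Gene expression was measured on 18 Affymetrix arrays. The values are log2 signals, as deposited; the authors used RMA, per the submitters' processing notes. The sources used here name no RMA version or setting and do not say whether both systems were normalized together. Of 23238 probe sets, 14939 had 1 gene symbol, 989 several and 7310 none in the platform annotation; 14884 matched a RefSeq table (GRCm38.p6, names and promoter windows) by Entrez ID, with 0 symbols changed. The probe set with the highest mean represented each of 14807 genes. No filter on low signal was applied.

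Groups came from the sample titles. Differences were tested two-sided with limma 3.58.1 in R 4.3.3 (lmFit, eBayes, Benjamini-Hochberg over all genes, threshold 0.05), on the 9 arrays of a system, or on all 18 for comparisons across systems. The scripts were tested on simulated data. The number of arrays limits the precision. Alternatives were 1 model of all arrays, only the arrays compared, a replicate block, quantile normalization, a filter on low signal, array weights, a mean-variance trend, the mean of a gene's probe sets, and each array left out. In culture, same-number arrays deviated together (correlations of 0.202 to 0.552 over 9 pairs; -0.358 to 0.118 over 18 other pairs), and the labels speak of dishes from 3 cultures, so blocked values stand beside results they change. In cortex the same-number correlations were -0.102 to 0.101, so over all genes the numbers showed no shared deviation of the pools. A single gene can differ: Sqle was highest on array 3 of each cortex group. With the block, its adjusted p was 0.0816 for sleep deprivation and 0.0574 for recovery against deprivation.

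The members, the pathway and marker lists and the rules were chosen with earlier results of these data known. Named were the 7 members, pathway genes that passed, Srebf1, Srebf2, Fdft1, Insig2 and Cyp51, and the 5 genes most correlated with Insig1 and with the members' mean. Genes singled out from the marker lists were those that passed, and also Mobp and Mbp. Neither of these passed, and they are given because they went against Opalin and Aspa.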

Additional observations from a re-analysis of the deposited data

Results flagged for a closer look

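The response of Pmvk differed between the systems by a test of the difference itself. Stimulation of cultures moved Pmvk by 1.33 more, on the log2 scale, than sleep deprivation moved it in cortex (SE 0.30, adjusted p = 0.0358, limma over 18 arrays). All 3 pairs of same-number dishes were higher at 3 h, by 0.62 to 2.40, and all 3 sleep-deprived arrays lay above all control arrays in cortex, where the mean difference was 0.16. The adjusted p was 0.0568 with the replicate block. The call was kept without sham dish 2 or 3 h dish 2, and lost without any other array of the 12 (adjusted p 0.0592 to 0.091). Pmvk read 6.30 to 6.57 on these cortex arrays, under their array medians of 6.88 to 6.92, and 8.11 to 10.50 in the dishes compared. Whether the low level in cortex limited the size of its change there was not tested.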

How the results depend on the processing

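Array weights, whose fit did not converge in some cases, called 3 members for sleep deprivation against control in place of 0, and 2 from 3 h to 24 h in culture (Insig1 and Pmvk) in place of 0, while calls over all genes rose from 241 to 811 and from 49 to 2829. One model of all 18 arrays called 0 members for recovery against sleep deprivation in place of 2, and 1 from 3 h to 24 h. Using only the 6 arrays compared called 0 for recovery against sleep deprivation and 0 at 3 h against sham in place of 1, and a mean-variance trend called 0 at 3 h. With the replicate block, 0 members were called for recovery against sleep deprivation (Insig1 adjusted p = 0.0696, Lss 0.0864). Same-number cortex pools showed no shared deviation over all genes. The block also gave 0 called members at 3 h, and 3 in place of 0 for the recovery response difference. Other calls it changed stand beside their results. With single arrays left out, the members called were 0 to 1 for recovery against sleep deprivation, 0 in every case at 3 h, 0 to 2 for the stimulation response difference and 0 to 1 for the recovery response difference.

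Directions turned in uncalled values. With array weights they were 0.026 for Ggps1 under sleep deprivation, -0.026 for Pmvk and -0.091 for Dhcr7 in recovered against control cortex, and -0.071 for Lss at 3 h. Quantile normalization turned Ggps1 in culture against cortex to -0.11. With single arrays left out, the difference ranged from -0.061 to 0.024 for Ggps1 under sleep deprivation. In recovered against control cortex it ranged from -0.090 to 0.0063 for Hmgcs1, -0.011 to 0.11 for Pmvk, -0.084 to 0.11 for Sqle and -0.049 to 0.13 for Dhcr7. At 3 h it ranged from -0.016 to 0.31 for Sqle, -0.13 to 0.36 for Lss and -0.13 to 0.083 for Dhcr7, and from 3 h to 24 h from -0.44 to 0.028 for Lss and -0.14 to 0.0051 for Dhcr7. At 24 h against sham it ranged from -0.37 to 0.040 for Insig1, -0.31 to 0.022 for Hmgcs1, -0.36 to 0.14 for Lss and -0.21 to 0.0032 for Dhcr7. The cause was not tested. Of 483 values under the other alternatives, 457 kept their direction and side of the threshold, as did 413 of 462 with single arrays left out.

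Over all genes, calls under the other alternatives ran from 31 to 811 for sleep deprivation (241 as reported), 42 to 774 for recovery against deprivation (334), 0 to 1 for recovered against control (0), 183 to 1170 at 3 h (215), 1 to 2829 from 3 h to 24 h (49), 0 to 958 at 24 h against sham (0), 277 to 1055 for the stimulation response difference (307) and 150 to 423 for the recovery response difference (150). The limits are 3 arrays per group, pooled mice, and signals whose scale differs between the systems. Further limits are sham dishes sampled at 3 h alone and, by the design text, recovered and sleep-deprived mice sampled at different hours.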

Other observations

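Counts of other lipid genes in sham culture against control cortex stand against 9028 of all 14807 genes called higher as deposited, with a median of 0.50, and they depended on scaling. All 8 measured genes of fatty acid synthesis were called higher as deposited (median 1.59) and after quantile normalization (median 0.74), and 7 were higher and 1 lower at a common SD. Of 6 genes of prenyl transfer, which attach isoprenoid lipids to proteins, 6 were called higher as deposited (median 0.78) and 3 after quantile normalization (median 0.15). Of 9 genes of cholesterol efflux, transport and turnover, 6 were called higher and 1 lower as deposited, against 4 and 3 after quantile normalization. Of 9 genes of sterol sensing and uptake, 8 were called higher as deposited (median 1.11), against 4 higher and 2 lower after quantile normalization (median 0.22).

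From 3 h to 24 h in culture, all 8 fatty acid synthesis genes lay below 0 with a median of -0.13, and 0 were called. Of all genes, 41.2% lay below 0, with a median of 0.03.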
